A study of Mus musculus with 3 samples.

Results

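The 10 genes Pecam1, Ptprb, Heg1, Srgn, Emcn, Egfl7, Clec14a, Myct1, Cd34 and Robo4 are genes of blood vessel endothelium, taken from 19938 genes measured on 3 arrays of sorted renin cells. They were chosen by their log2 signals on the arrays themselves, which were highest on 1 of the 3 arrays, that of replicate 2. The height on replicate 2 is therefore described here and not tested. The 10 genes were read by 11 probe sets, 2 for Heg1 and 1 for each other gene, and the brighter probe set of Heg1 was used.

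The study isolated renin-producing juxtaglomerular cells by digesting kidney cortex and sorting for YFP, in adult male Ren1c-YFP mice, where yellow fluorescent protein (YFP) marks cells that use the renin gene. All animals drank captopril, which blocks angiotensin-converting enzyme, at 0.5 mg/ml and ate low-salt chow for 2 weeks. The strain is unspecified in the labels, and samples were not pooled. There is 1 group of 3 single-colour Affymetrix arrays, called replicates 2, 4 and 5 as in the labels, with no untreated, unsorted or YFP-negative sample analysed here, so each array stands for 1 sample and a difference between arrays has no replicate check. The labels do not say outright that each sample came from its own animal.

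The deposited values were read as log2 signals, on which 1 unit is a 2-fold difference. Their median was 6.09, 6.11 and 6.21 in replicates 2, 4 and 5. A background level was set on each array as the 95th percentile of 1027 olfactory receptor genes, and came to 6.20, 6.32 and 6.50. Renin cell genes and smooth muscle genes are described first, though without an unsorted sample their signals do not show what the sort enriched. All 8 measured renin cell genes and all 10 smooth muscle genes were above background, against 37.3% of all genes. Gja5, a connexin gene on the renin cell list, read 11.70, 11.25 and 11.07 in replicates 2, 4 and 5. Acta2, smooth muscle actin, read 12.69, 12.59 and 12.58. Ren1 was not analysed here. All 14 proximal tubule and all 7 thick ascending limb markers were above background too.

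Endothelial cells line every vessel and hold together through junctions in which Pecam1 and VE-cadherin are adhesion molecules and Heg1 anchors the cerebral cavernous malformation proteins. Ptprb, Clec14a and Robo4 are endothelial surface receptors, Emcn and Cd34 are sialomucins of the vessel surface, Egfl7 is secreted into the vessel matrix, Srgn is the proteoglycan core of secretory granules, and Myct1 is a membrane protein of endothelial and blood-forming cells. Several of these genes are also used by blood cells, among them Pecam1, Srgn and Cd34. Renin cells belong to the mural wall of the afferent arteriole, directly beside its endothelium. In RNA from a sorted sample, fewer cells of a type and less RNA per cell cannot be told apart.

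Upstream sequences of the genes are shown to set the letters of genes with a wide gap between arrays (Clec14a, Myct1 and Srgn) beside those of a gene with almost none (Cd34). Of the 10 genes, 8 matched the RefSeq promoter table (GRCm38.p6), with 11 start sites in all, and Pecam1 and Ptprb are named only. The 250 bases before the start were searched on both strands for AGGAAG and CGGAAG, strings that ETS factors of endothelium can bind, and matches stand in capitals. The windows lie at chr12:58269259-58269508 on the minus strand for Clec14a, chr10:5593478-5593727 on the plus strand for Myct1, chr10:62527446-62527695 on the minus strand for the first of 2 starts of Srgn and chr1:194938571-194938820 on the plus strand for Cd34. Each reads 5′ to 3′ and ends at the base before the start.
Clec14a: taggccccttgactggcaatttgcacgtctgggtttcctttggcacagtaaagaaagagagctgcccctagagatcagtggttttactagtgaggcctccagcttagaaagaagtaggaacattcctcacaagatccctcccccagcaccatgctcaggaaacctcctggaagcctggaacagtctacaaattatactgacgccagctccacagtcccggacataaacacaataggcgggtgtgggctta
Myct1: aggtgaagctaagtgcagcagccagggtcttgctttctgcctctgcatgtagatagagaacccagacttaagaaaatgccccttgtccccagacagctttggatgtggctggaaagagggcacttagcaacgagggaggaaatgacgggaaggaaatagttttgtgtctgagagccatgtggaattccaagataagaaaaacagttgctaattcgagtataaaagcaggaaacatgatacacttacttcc
Srgn: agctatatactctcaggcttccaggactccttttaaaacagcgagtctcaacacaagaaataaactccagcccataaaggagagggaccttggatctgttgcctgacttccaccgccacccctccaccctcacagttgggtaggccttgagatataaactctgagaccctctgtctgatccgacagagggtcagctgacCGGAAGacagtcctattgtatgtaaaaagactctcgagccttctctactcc
Cd34: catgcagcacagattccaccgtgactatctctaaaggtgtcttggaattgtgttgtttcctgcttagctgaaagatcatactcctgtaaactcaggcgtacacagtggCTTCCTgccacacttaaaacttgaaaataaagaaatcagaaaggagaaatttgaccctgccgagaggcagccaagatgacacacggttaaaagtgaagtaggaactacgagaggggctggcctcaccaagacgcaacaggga
The Srgn window held 1 match, which began at base -51 counted from the start, and that of Cd34 held 1, which began at base -142. The windows of Clec14a and Myct1 held none, which says only that these letters are not there. Over the 11 windows 7 held a match, in 6 of the 8 genes, against 39.2% of the 32851 windows in the table. The strings AGATAA and TGATAA, which GATA factors can bind, stood in 2 of the 11 windows, 1 of Egfl7 and that of Myct1, against 16.6% of all windows. Matches stood in windows of genes with a wide gap and in that of a gene with a narrow one. The GC content of the 11 windows ran from 40.8% to 68.0%, with a median of 49.6% against 52.4% for all.

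The 10 genes were all highest on the array of replicate 2, by very different amounts. Heg1, Pecam1, Ptprb and Srgn lay 3.16-fold to 4.52-fold above the higher of the other arrays, Emcn and Egfl7 1.58-fold above it, and Cd34 and Robo4 only 1.05-fold and 1.02-fold. Clec14a and Myct1 were under the background level on replicates 4 and 5, so their folds are lower bounds against that level, at least 3.53-fold for Clec14a and at least 1.84-fold for Myct1. Over all genes 30.3% were highest on replicate 2, 28.5% on replicate 4 and 40.8% on replicate 5, so being highest there is a common state, and nothing is read from the count of 10 because it chose the genes. The excess of a gene is used below for its log2 signal on an array minus the higher of the other arrays. An excess over 1 on replicate 2 was found in 6 of the 10 genes and in 151 of all genes (0.757%). With signals under an array's background level set to that level, the counts were 5, without Myct1, and 101. The median excess of the 10 was 1.67, against -0.16 over all genes.

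**Figure D1:**
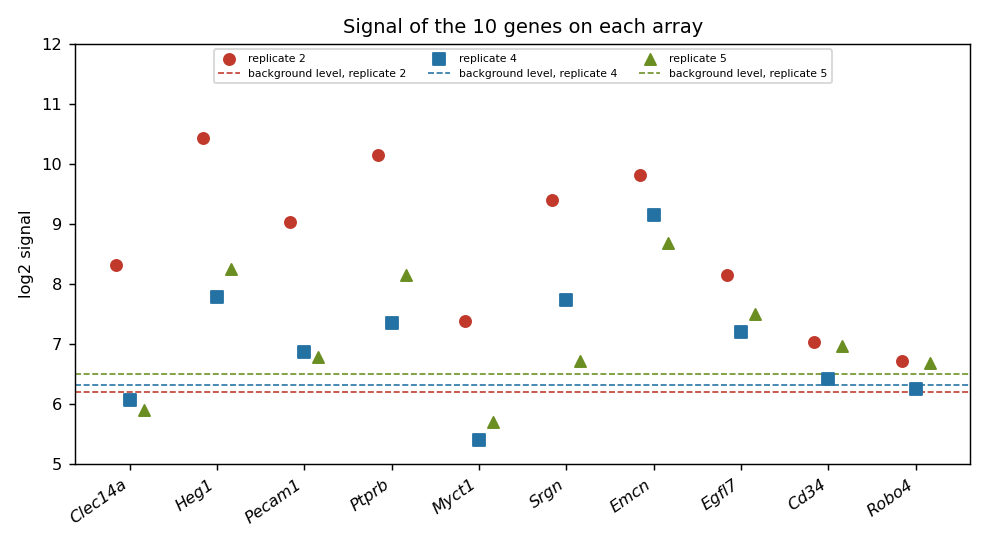
Log2 signal of each of the 10 genes on the arrays of replicate 2 (circles), replicate 4 (squares) and replicate 5 (triangles), 1 point per array, ordered by excess on replicate 2, with each array's background level as a dashed line. The circle lies highest for every gene, by 2.25 for Clec14a at the left, whose other points lie under the level, and by 0.03 for Robo4 at the right.

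Among the adhesion and junction genes, Pecam1 had log2 signals of 9.03, 6.87 and 6.79 in replicates 2, 4 and 5 (mean 7.56 ± 1.27, SD, n = 3, as for all means below). Replicate 2 stood apart and the other arrays lay within 0.08 of each other. The signal of replicate 2 was 4.47-fold that of replicate 4 and 4.73-fold that of replicate 5. Heg1 had signals of 10.44, 7.79 and 8.26 (8.83 ± 1.41), so that replicate 2 was 6.25-fold and 4.52-fold above replicates 4 and 5. The dimmer probe set of Heg1 read 6.64, 6.23 and 6.33, with the same order of arrays and a gap of at most 0.41 log2 units. The size of the Heg1 gap thus rests on the brighter probe set.

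Among the receptors, Ptprb, the phosphatase that removes phosphate from the angiopoietin receptor Tek and from VE-cadherin, had signals of 10.16, 7.36 and 8.16 in replicates 2, 4 and 5 (8.56 ± 1.44). Its signal in replicate 2 was 6.95-fold that of replicate 4, the widest such gap of the 10 genes, and 3.99-fold that of replicate 5. Clec14a, a C-type lectin that binds the matrix protein Mmrn2, had signals of 8.32, 6.07 and 5.91 (6.77 ± 1.35). It lay 2.12 above the background level on replicate 2 and under it on the others, at -0.25 from the level on replicate 4 and -0.59 on replicate 5. Robo4, a roundabout receptor that keeps vessels tight, had signals of 6.73, 6.26 and 6.70 (6.56 ± 0.26). Replicates 2 and 5 differed by 0.03 for Robo4, and replicate 4 was the low array.

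The sialomucin genes had an excess under 1 on replicate 2, of 0.66 for Emcn and 0.07 for Cd34. Emcn, endomucin, had signals of 9.81, 9.15 and 8.69 in replicates 2, 4 and 5 (9.22 ± 0.56). Its signal in replicate 2 was 1.58-fold that of replicate 4 and 2.17-fold that of replicate 5. It was over the background level by more than 2 units on every array (3.61, 2.84 and 2.19). Cd34 had signals of 7.04, 6.42 and 6.97 (6.81 ± 0.34). As for Robo4, replicates 2 and 5 were close, 0.07 apart, and replicate 4 was lower. With each array centred on the median of 9 housekeeping genes, replicate 5 became the highest for both, with replicate 2 at -0.32 from it for Cd34 and -0.36 for Robo4, so which array is highest is not settled for these genes. The other 8 genes kept replicate 2 as the highest array under each scaling tried.

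Of the secreted and granule genes, Egfl7 had signals of 8.15, 7.21 and 7.50 in replicates 2, 4 and 5 (7.62 ± 0.48), with replicate 2 at 1.92-fold the level of replicate 4 and 1.58-fold that of replicate 5. The span of Egfl7 holds the gene of miR-126a, a microRNA of endothelium, whose sequence is shown because the array also has a probe set for it. The mature strand on the 3′ arm (mmu-miR-126a-3p, chr2:26591402-26591423, plus strand, GRCm38.p6) has its seed, bases 2 to 8, in capitals.
miR-126a-3p: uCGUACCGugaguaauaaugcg
The probe set for Mir126a read 3.15, 3.12 and 3.24, under the background level on all 3 arrays, so that it gives no comparison between arrays. The probe set of Egfl7 was 1.95, 0.89 and 0.99 above the level. Srgn had signals of 9.40, 7.73 and 6.72 (7.95 ± 1.35). Its arrays were spread out, with replicate 2 at 3.16-fold replicate 4 and 6.38-fold replicate 5, and replicate 4 stood 1.01 above replicate 5. Myct1 had signals of 7.38, 5.41 and 5.71 (6.17 ± 1.06), over the background level by 1.18 on replicate 2 and at -0.91 and -0.79 from it on replicates 4 and 5.

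The order of replicates 4 and 5 varied among the genes. Replicate 4 was the lowest array for Ptprb, Heg1, Egfl7, Myct1, Cd34 and Robo4, and replicate 5 for Pecam1, Srgn, Emcn and Clec14a. The difference of replicate 4 from replicate 5 ran from -0.80 in Ptprb to 1.01 in Srgn, with a median of -0.29 against -0.04 over all genes. The median SD of the 10 genes over the arrays was 1.17, against 0.22 for all genes. On replicate 2 all 10 genes were over the background level, on replicate 4 there were 7 and on replicate 5 there were 8, against 53.1%, 49.4% and 45.4% of all genes. These counts rest on the signals that chose the genes, and nothing is read from them.

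**Figure D2:**
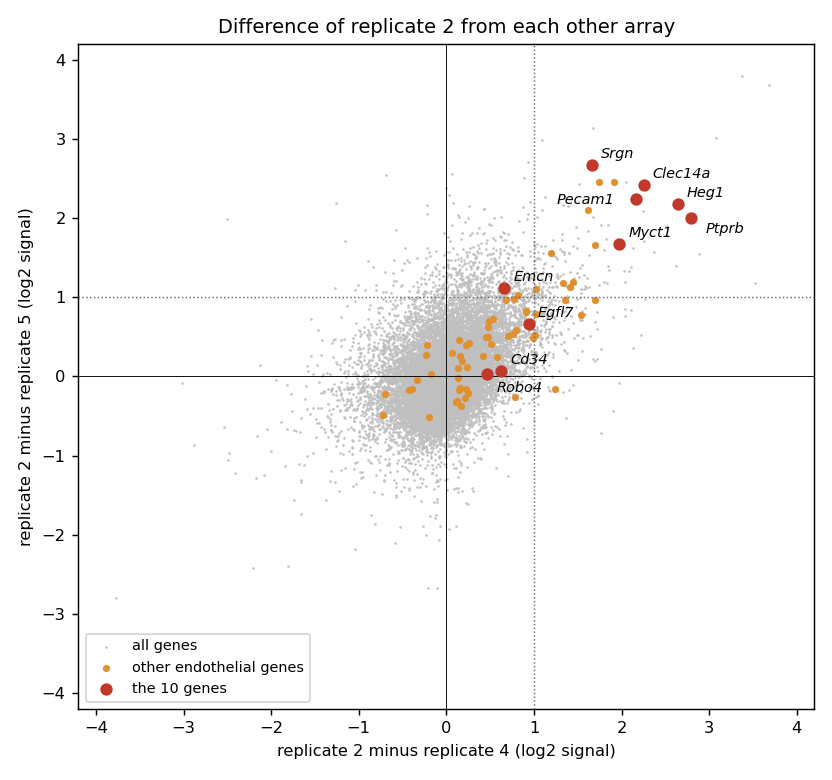
Difference in log2 signal of replicate 2 from replicate 4 (horizontal axis) and from replicate 5 (vertical axis) for all 19938 genes (grey), 60 other endothelial genes (orange) and the 10 genes (red), with dotted lines at 1. Of the 10 genes, 6 lie past both dotted lines, and Cd34 and Robo4 lie near 0 on the vertical axis.

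Whether the mean over the 3 arrays was above background was asked with limma, one-sided and adjusted over all genes, and 7 of the 10 genes passed, against 37.3% of all genes (40.6% at an unadjusted p under 0.05). Nothing is read from this count, since it rests on the same signals that chose the genes. Emcn was 2.88 above the level with a standard error of 0.31 (limma adjusted p = 8.81e-05), Heg1 2.49 ± 0.50 (SE, limma adjusted p = 0.00224), Ptprb 2.22 ± 0.50 and Egfl7 1.28 ± 0.26. Srgn, Pecam1 and Cd34 passed with limma adjusted p = 0.0155, 0.0359 and 0.0491. Without the trend in eBayes 5 of the 10 and 7438 of all genes passed, and Pecam1 and Cd34 did not (limma adjusted p = 0.0757 and 0.0531). In the trended fit Clec14a, Robo4 and Myct1 did not pass (limma adjusted p = 0.412, 0.254 and 1). Without replicate 2 the count was 4 of the 10, against 30.3% of all genes. These were Emcn, Heg1, Ptprb and Egfl7, whose signals in replicates 4 and 5 alone were above background. Pecam1, Srgn and Cd34 then had limma adjusted p = 0.12, 0.0637 and 0.262, and Cd34 had 0.0806 without replicate 5. With the 99th percentile of olfactory receptor genes as the level, the count was 2 of the 10 and 3303 of all genes.

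Endothelial genes outside the 10 were then set on the same scale, in 4 lists of junction and adhesion genes, receptors, transcription factors and others that hold 60 measured genes. An excess over 1 on replicate 2 was found in 9 of the 60 (15.0%), and in 0 on replicate 4 and 0 on replicate 5, against 0.757%, 0.557% and 0.356% of all genes. The median excess of the 60 was 0.34 on replicate 2, -0.50 on replicate 4 and -0.49 on replicate 5, against -0.16, -0.17 and -0.08 over all genes. Replicate 2 was the highest array for 40 of the 60 genes (66.7%), replicate 4 for 8 and replicate 5 for 12. It was the highest for 30.3% of all genes and for 43.6% of all genes above background. Of the latter, 0.955% had an excess over 1 on replicate 2, and their median excess there was -0.06. Above background by limma were 29 of the 60 (48.3%, against 37.3% of all genes), and without replicate 2 they were 17 (28.3%, against 30.3%). The count of 9 became 5 with arrays centred on housekeeping genes, where all genes fell from 151 to 65, and 15 with each array's background level subtracted. With signals under the level set to it the count was 7, without Erg and Palmd, which were under the level on replicates 4 and 5. It was 15 without replicate 5 and 10 without replicate 4, where a gene has only 1 array to exceed, and the count over all genes was 344 and 760.

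Among junction and adhesion genes, 2 of 11 passed an excess of 1, Cdh5, which encodes VE-cadherin (8.70, 7.08 and 6.59 in replicates 2, 4 and 5), and Cd93, a lectin receptor that like Clec14a binds Mmrn2 (9.28, 7.95 and 8.10). Jam2 and Eng, the endoglin gene, had an excess of 0.97 and 0.83, and Nectin3 was lowest on replicate 2 (8.10, 8.82 and 8.58). Among receptors there were 4 of 17. Adgrl4, an adhesion receptor of vessels, read 9.28, 7.36 and 6.82, and Flt1, a receptor of vascular endothelial growth factor, 8.69, 7.00 and 7.04. S1pr1, the sphingosine phosphate receptor, read 8.999, 7.80 and 7.44 and Adgrf5 9.70, 8.29 and 8.58. These 6 genes each stood over 1 unit higher on replicate 2 than on either other array.

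Of the 17 receptors 14 were highest on replicate 2 (82.4%, against 30.3% of all genes and 43.6% of those above background). Kdr and Tie1 are shown as defining receptors and were chosen after their values were seen. Kdr, the main receptor of vascular endothelial growth factor, read 6.84, 6.69 and 6.38 in replicates 2, 4 and 5, and Tie1 6.86, 6.64 and 6.46. Tek was lowest on replicate 2, at 6.41, 7.11 and 6.63. Kdr and Tie1 had an excess of 0.14 and 0.22, and with Tek they lay near the background level and did not pass as above it. Of 18 transcription factors 1 passed an excess of 1, Erg, the ETS factor of endothelium (6.84, 5.82 and 5.74). Replicate 2 was the highest array for 9 of the 18 (50%), which is near the 43.6% of all genes above background. Epas1 (11.46, 10.55 and 10.64), Lmo2 and Hhex followed with an excess of 0.82, 0.68 and 0.53, and Bcl6b was lowest at -0.43. In the remaining list 2 of 14 passed, Cyyr1 (8.96, 7.22 and 6.50) and Palmd (7.48, 6.03 and 6.29), with She at 0.96 and Mmrn2 at 0.77, and Grrp1 was lowest at -0.51. Jam2, Eng, Erg, Palmd, She, Mmrn2, Hhex and Bcl6b did not pass as means either. Erg, Palmd, Mmrn2 and Hhex were under the background level on replicates 4 and 5. With such signals set to the level, their excess was 0.34, 0.97, 0.32 and 0.17.

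**Figure D3:**
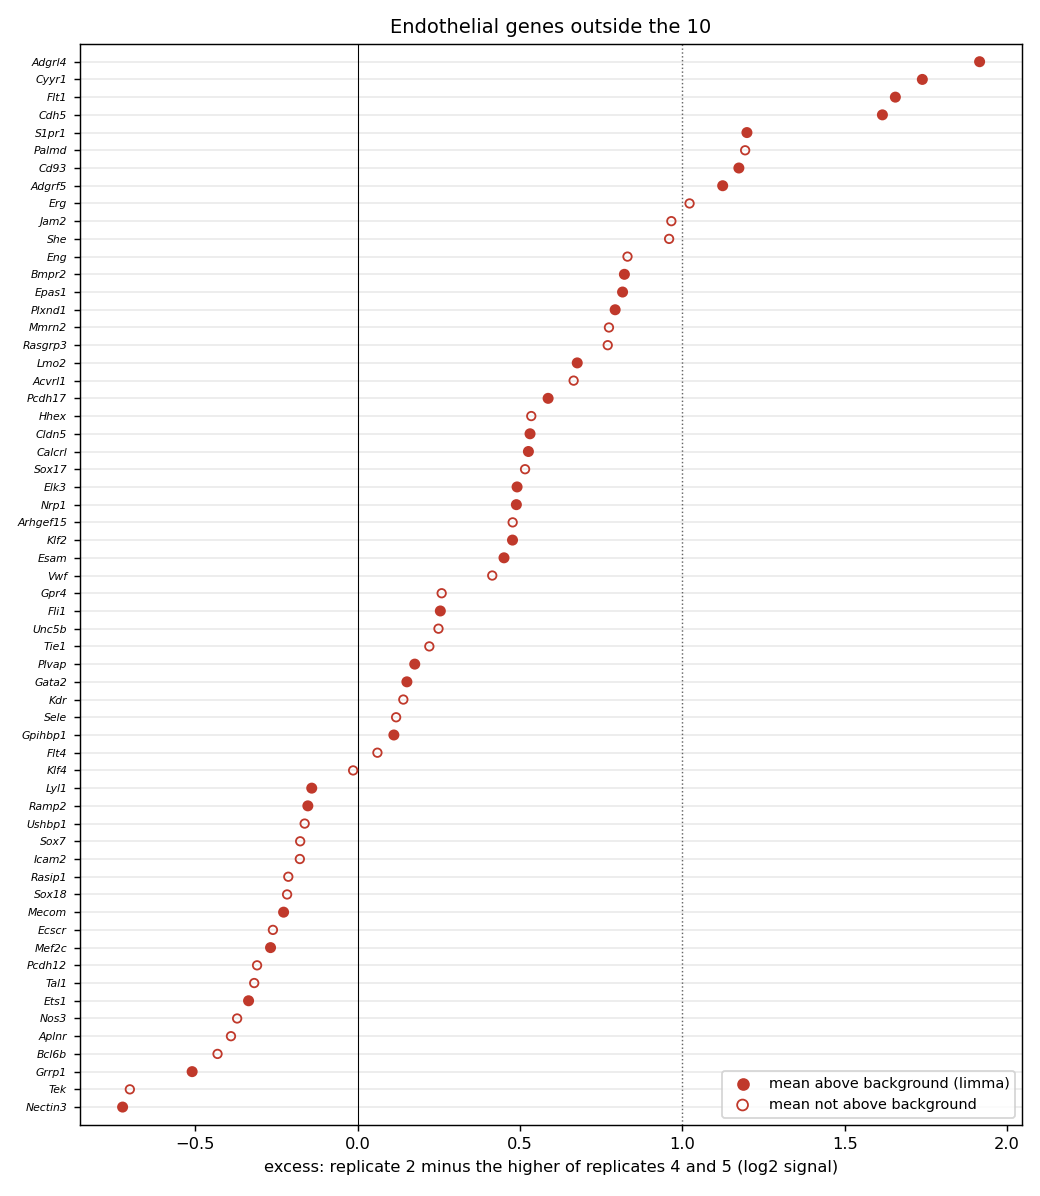
Excess of replicate 2 over the higher of replicates 4 and 5, in log2 signal, for 60 endothelial genes outside the 10, from the highest to the lowest, 1 point per gene. Filled points mark genes whose mean was above background by limma. There are 9 genes beyond the dotted line at 1, from Adgrl4 at 1.92 to Erg at 1.02, and 40 lie above 0.

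Lists for vessel segments held few measured genes. Of 8 arterial genes 2 had an excess over 1 on replicate 2, the connexin gene Gja4 (9.12, 7.80 and 7.53 in replicates 2, 4 and 5) and Bmx (5.82, 4.33 and 4.52). Efnb2 and Sox17 had an excess of 0.52 each and Jag2 was lowest at -0.31. Bmx, Sox17 and Jag2 were under the background level on every array. Of 6 venous and peritubular genes 1 passed, Igfbp3 (8.74, 7.22 and 7.37), with Vwf at 0.41, Plvap at 0.18, Nr2f2 at -0.03 and Ephb4 at -0.53. None of 6 glomerular genes passed, and Cyb561, Plat and Pi16 had an excess of 0.72, 0.31 and 0.10, with Ehd3 at -0.26 and Sost at -0.45. None of 5 lymphatic genes passed either, and their defining genes Prox1 (5.25, 5.02 and 5.17) and Lyve1 (5.85, 6.12 and 6.38) were under the background level on every array. Of the 4 lists, the arterial list had the highest median excess on replicate 2, at 0.36, and the glomerular list the lowest, at -0.08. Only 4 of the 8 arterial and 3 of the 6 glomerular genes were over the background level there. The order of the lists thus rests in part on signals under the level, and nothing is read from it.

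Of 21 measured partners of the 10 gene products, 2 had an excess over 1 on replicate 2 (9.52%, against 0.757% of all genes). These were Cdh5 and Cd93, both already counted among the junction and adhesion genes. Replicate 2 was the highest array for 10 of the 21 (47.6%, against 30.3%), and 13 were above background (61.9%, against 37.3%). Among all genes above background 43.6% were highest on replicate 2, which is near the share of the partners. Their median excess was -0.08 on replicate 2, against -0.16 over all genes. Mmrn2, the ligand of Clec14a, followed with 0.77 and Slit3, a guidance ligand, with 0.68 (9.48, 8.67 and 8.80), and Tek, a substrate of Ptprb, was lowest with -0.70. Further partners were chosen after their values were seen. Of the cerebral cavernous malformation genes, whose products meet Heg1 at the junction, Pdcd10 was highest on replicate 2 (9.62, 8.86 and 9.03), and Krit1 (7.32, 7.57 and 7.53) and Ccm2 (7.05, 7.16 and 6.25) were highest on replicate 4.

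Markers of blood cells, which also use Pecam1, Srgn and Cd34, were over the background level on replicate 2 in 4 of 8 platelet, 7 of 16 macrophage and dendritic, 1 of 12 lymphocyte, 1 of 9 neutrophil and mast cell and 2 of 5 erythroid cases, against 53.1% of all genes there. None of these markers had an excess over 1 there, and the median excess of these lists was -0.04, -0.29, -0.31, -0.25 and -0.18. Ptprc, the pan-leukocyte marker CD45, also chosen after its values were seen, read 5.67, 5.73 and 5.40 in replicates 2, 4 and 5, under the level on each array. Pf4 and Ppbp, platelet chemokine genes, read 5.27, 4.90 and 5.01, and 5.43, 4.54 and 4.70, also under it. Linear signals summed over a list, in which bright probe sets weigh most, are set only against the same sum on another array. Those of the macrophage and dendritic list were 1650, 1954 and 1653, and those of the platelet list 548, 528 and 603. For the 60 other endothelial genes they were 18571, 11253 and 11664, and over all genes 4787159, 4608982 and 4089711. For the 10 genes they were 5633, 1706 and 1745, and nothing is read from these because height on replicate 2 chose the genes. The part of blood cells in the result was not tested. Of the 16 macrophage and dendritic genes 4 were above background as means (25%, against 37.3% of all genes), namely Cx3cr1, Tyrobp, H2-Aa and H2-Ab1. H2-Ab1 read 9.28, 9.32 and 8.65 in replicates 2, 4 and 5. Cx3cr1, also chosen after its values were seen, read 7.29, 7.95 and 7.71. The H2-Aa gene of antigen-presenting cells was lowest on replicate 2, with an excess of -1.12.

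**Figure D4:**
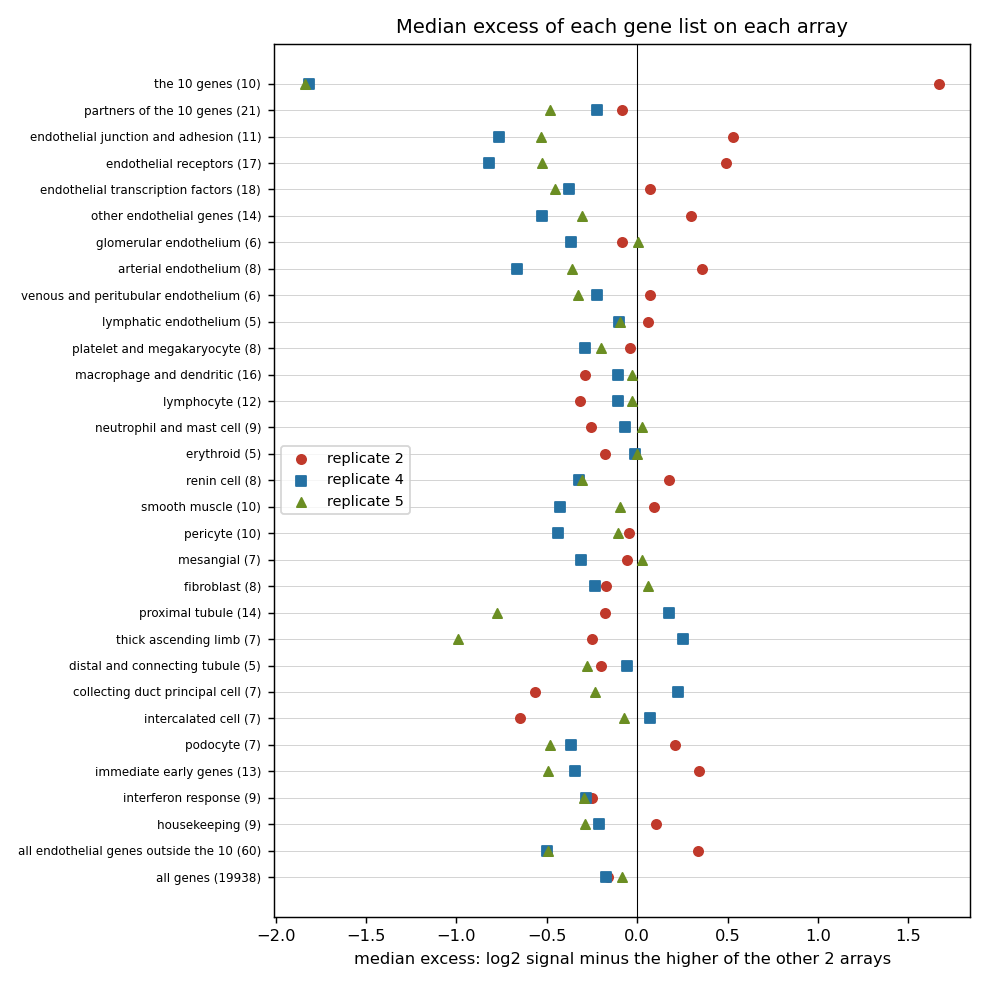
Median excess of each gene list on replicate 2 (circles), replicate 4 (squares) and replicate 5 (triangles), in log2 signal, with the number of measured genes in brackets. The 10 genes, chosen for this pattern, lie at 1.67 on replicate 2, the list of endothelial junction and adhesion genes at 0.53 and that of intercalated cells at -0.65.

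Other gene lists moved with the arrays as well, and their part in the result was not tested. Immediate early genes, which cell dissociation is known to induce, were highest on replicate 2 in 10 of 13 cases (76.9%), with a median excess of 0.34 there. The share was 30.3% for all genes and 43.6% for all genes above background. Ccn1 (10.54, 8.94 and 9.41 in replicates 2, 4 and 5) and Nr4a1 (8.15, 7.00 and 7.06) passed an excess of 1. Jun (9.08, 8.23 and 7.75) and Egr1 (7.56, 6.95 and 6.86) followed with an excess of 0.85 and 0.62, and both passed as above background. Fosb was lowest at -0.19. Fos, Junb and Atf3, chosen after their values were seen, had an excess of 0.19, -0.13 and -0.07. Like Fosb, they did not pass as above background. Housekeeping genes were highest on replicate 2 in 7 of 9 cases (77.8%), with a median excess of 0.10. Renin cell, smooth muscle and podocyte lists had a median excess of 0.17, 0.09 and 0.21 on replicate 2, and pericyte, mesangial and fibroblast lists of -0.04, -0.06 and -0.17. None of these 6 lists had a gene with an excess over 1 there, among them Agtr1a (0.43), Tagln (0.45), Cd248 (0.62), Itga8 (0.41), Col1a1 (0.04) and Cdkn1c (0.64). Collecting duct lists were low on replicate 2, with a median excess of -0.57 for principal cells and -0.65 for intercalated cells, against -0.16 over all genes. On that array 5 of 7 genes of each list were lowest, against 6676 of all 19938 genes and 1560 of the 7437 above background. For the proximal tubule, the thick ascending limb and the distal tubule the median on replicate 2 was -0.18, -0.25 and -0.20. In the first pair of these lists replicate 5 was the low array. It was lowest for 11 of 14 proximal tubule and 6 of 7 thick ascending limb genes, with a median excess of -0.78 and -0.99. Of 7437 genes above background, 3925 were lowest on replicate 5, with a median excess of -0.35. Over all 19938 genes, 6426 were lowest there, with a median of -0.08. Being lowest on replicate 5 was thus common among genes above background. Fxyd4 (8.08, 9.54 and 8.15), a gene of principal cells, was highest on replicate 4, and Foxi1 (6.92, 7.90 and 7.83), the intercalated cell transcription factor, was lowest on replicate 2. The interferon list had a median excess of -0.25, with Ifit1 at 0.88 and Irf1 at -1.08. Ifit1 was under the background level on replicates 4 and 5, and its excess was 0.19 with such signals set to the level. The 9 genes of the interferon list did not pass an excess of 1 on replicate 2.

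The genes with the profile most like that of the 10 over the 3 arrays were sought among 7209 other genes above background. That filter used the mean over all 3 arrays, so a gene could enter mainly through a high signal on replicate 2. Likeness was the Euclidean distance between a gene's signals, taken minus its own mean, and the median profile of the 10, which was 1.33, -0.55 and -0.49 in replicates 2, 4 and 5. The 12 nearest were Lrrc8c, Flt1, Glp1r, Timp2, Rab5if, Cavin3, Rai2, Igfbp3, Mfap3, Tm6sf1, Acbd6 and Cdh5, at distances from 0.19 to 0.42, against a median of 1.47 over the genes searched. Flt1 and Cdh5 stood on the 4 endothelial lists, as did 29 of the 7209 genes searched, and Igfbp3 stood on the venous list. Lrrc8c, a subunit of volume-regulated anion channels, read 8.61, 6.76 and 6.70, and Glp1r, the receptor of glucagon-like peptide, 9.46, 7.66 and 7.86. Timp2, an inhibitor of matrix proteases, read 10.66, 9.04 and 9.13, and Cavin3, a caveolar protein, 9.12, 7.68 and 7.47. Of the 10 genes themselves Myct1 lay nearest to the median profile, at 0.24, and Cd34 and Robo4 farthest, at 1.29 and 1.34. With 3 arrays, a like profile says only that a gene was high on the same array. The profile came from genes chosen for their height on replicate 2, so nothing is read from which genes lay near it.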

How the data were processed

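Biotin-labelled RNA from 3 samples was hybridised to single-colour arrays after 1 round of NuGEN amplification, per the labels' protocols. The deposited values are log2 signals per probe set, a scale inferred from their range of 2.21 to 13.96 because no source states the log base. The submitters' processing notes name Affymetrix Expression Console. Not given in the sources used here are its version, how probes were summarised and how arrays were normalized. The number of arrays limits the precision. Each of the 3 arrays was matched to its sample by the column name.

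Of 35557 probe sets, 21789 had 1 gene symbol in the platform table, 1621 several and 12147 were unlisted. Symbols were checked by Entrez identifier against RefSeq (GRCm38.p6), which matched 21698 and changed 0. The brightest probe set of a gene was taken. Signals minus each array's background level entered an intercept-only model in limma 3.58.1 under R 4.3.3 (trended eBayes, one-sided, Benjamini-Hochberg over 19938 genes, threshold 0.05), and the script was tested on simulated data. At an unadjusted p under 0.05, 8086 genes passed. The excess on an array carries no test.

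The members, lists and thresholds were chosen with earlier results of these data known. Named were the 10 genes, of each list up to 4 genes with the largest excess on replicate 2 and the lowest, and the 12 nearest profiles, leaving out predicted genes. Some genes named by this rule in lists that describe other cell types were left out for length. Since separate animals are not stated, p-values reflect only how these samples spread, which may be technical. Python 3.11.15, pandas 2.3.3 and numpy 2.4.6 were used. Alternatives were other levels, probe set means, quantile normalization, housekeeping centring, no trend, other fold thresholds and leaving out each array. Subtracting the level, and setting lower signals to it, were added after seeing the data.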

Additional observations from a re-analysis of the deposited data

How the results depend on the processing

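All of the 10 genes belong to 1 group of samples, so no paired analysis was possible because there is no second group to share replicate numbers. The median excess of the 10 genes on replicate 2 stayed between 1.27 and 1.88 under 7 alternatives, including 1.82 without replicate 5 and 1.83 without replicate 4. With the 99th percentile of olfactory receptor genes, 2 of the 10, 10 of the 60 other endothelial genes and 3303 of all genes were above background by limma, and with vomeronasal receptor genes 56 of the 60 and 13410 of all genes. Leaving out 1 array gave 4 to 8 of the 10, 17 to 33 of the 60 and 6051 to 7806 of all genes. The mean of Myct1 turned from -0.17 to 0.72 against vomeronasal receptor genes, and that of Cd34 from 0.47 to -0.39 against the 99th percentile. Both follow from the level being lower or higher. An excess over 0.5 and over 1.5 on replicate 2 was found in 24 and 4 of the 60 and in 979 and 30 of all genes. Without replicate 4 or 5 the counts were 10 to 15 of the 60 and 344 to 760 of all genes. Centring on housekeeping genes, which moved all genes by -0.39 between replicates 2 and 5, gave 5 of the 60 and 65 of all genes. Subtracting the background level, chosen after seeing the data, moved all genes by 0.30 and gave 15 of the 60 and 294 of all genes. No excess on replicate 2 exists without that array. Probe affinity sets a signal too, so signals are compared between arrays only.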

Other observations

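Prkch, Mir99a and Vegfc had a wider measured gap on replicate 2 than any of the 10 genes and were named after their values were seen. All 3 were under the background level on replicates 4 and 5, as Clec14a was, so their folds are lower bounds and give no rank among these genes. Prkch, which encodes a protein kinase C, read 8.18, 4.50 and 4.50 in replicates 2, 4 and 5, at least 3.21-fold higher on replicate 2. It has 2 probe sets, and the brighter was used. Mir99a read 8.36, 4.99 and 4.56, at least 3.63-fold higher. Vegfc, a growth factor of lymphatic vessels, read 9.26, 6.18 and 6.25, at least 6.75-fold higher. As means over the arrays they did not pass as above background by limma (adjusted p = 1, 1 and 0.188). The olfactory receptor gene Olfr311, a member of the family that sets the background level, read 7.84, 5.15 and 5.65.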
